A study of Mus musculus with 6 samples.

Results

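The genes described here encode the subunits of the proteasome, the factors that assemble it and the proteins that bind its ends. They were taken as every row of the deposited count table whose symbol begins with Psma, Psmb, Psmc, Psmd, Psme, Psmf or Psmg followed by a digit, without the immunoproteasome subunits Psmb8, Psmb9 and Psmb10, which gave 46 of 23358 rows. The choice was by symbol, but the group was put forward with results of NU7441 against DMSO known, so all values from that contrast are given as a description and support nothing further. RNA-seq was done on MC3T3-E1 cells, an established line of pre-osteoblasts from the calvaria of C57BL/6 mice. Confluent cultures were given 1 µM NU7441, which blocks the DNA-dependent protein kinase, or its solvent DMSO, and were kept so for 16 h. Each group has 3 samples, numbered 1 to 3 in the labels, and the design text states that triplicates of independent experiments were pooled. What the numbers mark is not stated, and the p-values therefore reflect variation among these 6 samples, which may be technical.

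The proteasome degrades proteins that carry ubiquitin chains. Its core particle is a barrel of stacked rings: the outer alpha rings form the gate, and the inner beta rings hold the proteolytic sites. The regulatory particle caps the barrel, with a base of ATPases that unfold substrates and a lid that removes the ubiquitin. Dedicated chaperones assemble both particles, and other activators can replace the regulatory particle at the barrel's ends. In many cells the transcription factor NRF1, the product of Nfe2l1, raises the transcription of proteasome genes together when the proteasome is inhibited.

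Total counts lay between 47312968 and 71292628 per sample, the highest in DMSO replicate 3, and the 31 subunits of the usual core and regulatory particles had between 1858 and 16296 counts per sample. The osteoblast lineage markers (Runx2, Sp7, Alpl, Col1a1, Col1a2, Ibsp and Bglap) summed to between 40298 and 42566 counts per 1e6 scaled counts (CPM) in DMSO and between 41379 and 42320 in NU7441, with Bglap under 1 CPM in every sample. Of the 6 of them that were tested Alpl (log2 fold change -0.29) and Ibsp (-0.89) were lower in NU7441 and Col1a2 (0.05) was higher, and the part of this in the values below was not tested. Markers of macrophages summed to between 5.9 and 6.4 CPM over all samples with Ptprc at 0. Most of that sum was Lyz2 (4.87 to 5.51 CPM), with Csf1r between 0.77 and 1.17, and Adgre1 had no row. Endothelial, adipocyte and skeletal muscle markers were each under 1 CPM in every sample, with Kdr and Myod1 at 0. Of the epithelial markers Epcam was at 0, and the 3 together summed to between 2.23 and 3.2 CPM.

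Proteasome genes were well expressed in the DMSO cultures, and the core particle stood above the regulatory particle. Levels between genes are compared per length, as the RPKM values of the deposited table, which divide by the table's gene length. The 14 subunits of the usual core particle ran from 37.7 RPKM for Psma1 to 119 for Psmb1, with a median of 54.1. The 17 subunits of the regulatory particle ran from 22.2 RPKM for Psmc4 to 68.1 for Psmc3, with a median of 39.0. Both particles thus spanned about the same range among their own members, 3.15-fold in the core and 3.06-fold in the regulatory particle, although each subunit is built into its particle in equal number.

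Within the core, Psmb1 at 119 ± 2.09 RPKM (SD, n = 3) and Psmb4 at 106 ± 3.00 were set apart from the rest, which lay at or below 73.6 RPKM. The 3 catalytic subunits were ordered Psmb7 (68.4 ± 2.85), Psmb6 (54.2 ± 2.78) and Psmb5 (43.8 ± 0.207). These carry the trypsin-like, caspase-like and chymotrypsin-like sites respectively, and each step in that order was larger than the SDs beside it. The 8 lid subunits lay between 27.5 and 40.3 RPKM, a 1.46-fold range. Assembly factors were lower: the 4 core chaperones Psmg1 to Psmg4 lay between 8.64 and 13.5 RPKM, and Psmd9 and Psmd10, chaperones of the base, at 7.17 and 7.73. Psmd5, which also chaperones the base, was higher at 25.2 ± 0.727 RPKM.

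The 4 activators spanned a 5.35-fold range. Psme2, one chain of the interferon-inducible cap, stood at 77.5 ± 4.51 RPKM and its partner Psme1 at 46.6 ± 0.705. Psme3, the nuclear member of the same family, was at 25.3 ± 0.790 RPKM, and Psme4, a single-chain activator, at 14.5 ± 0.154. Tissue-restricted subunits were near the limit of detection. Psmb11, the beta subunit of the thymus, had 0.199 ± 0.0120 RPKM, and Psma8, the alpha subunit of the testis, had 2 counts in DMSO replicate 3 and 0 in the other 5 samples.

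**Figure D1:**
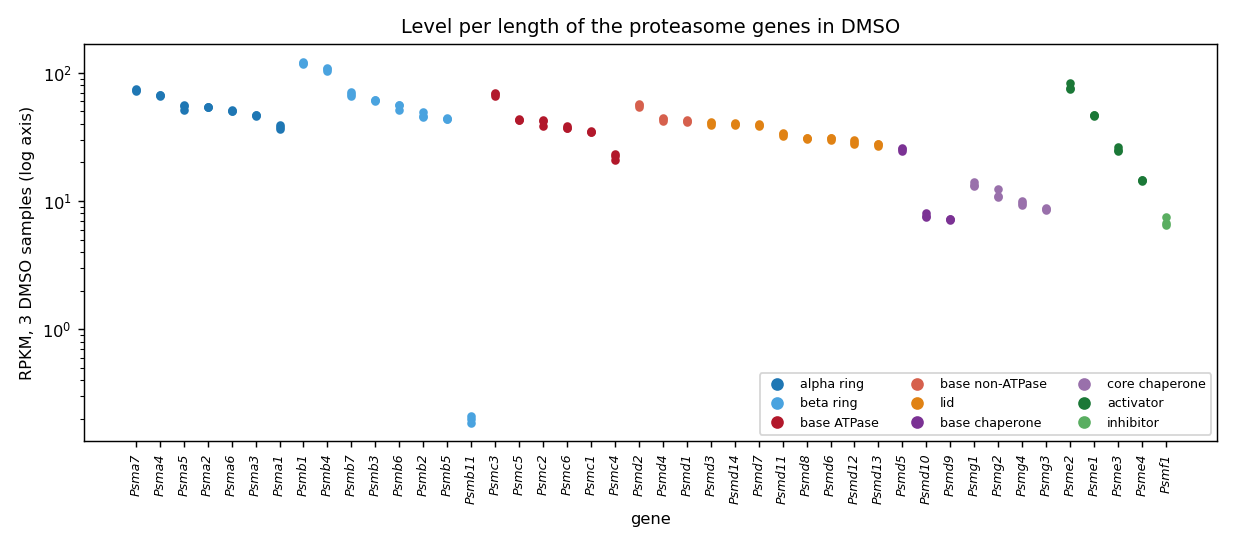
RPKM (log axis) of each proteasome gene in the 3 DMSO samples, one point per sample, coloured by role. Psmb1 and Psmb4 lead at 119 and 106 RPKM, the chaperones lie mostly near 10, and Psmb11 stands apart at 0.199; Psma8, at or near 0, is not drawn.

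Between NU7441 and DMSO, most proteasome subunits were lower in NU7441, by a small amount. Log2 fold changes of the 31 subunits of the usual core and regulatory particles ran from -0.32 to 0.06. Of the 46 rows 45 passed the filter on low counts, Psma8 being the exception. In the quasi-likelihood test of edgeR, fitted to all 13784 genes that passed the filter, 30 of the 45 were lower and 1 was higher at a Benjamini-Hochberg adjusted p of 0.05. Over all genes tested 16.6% were called lower and 14.1% higher. The median log2 fold change of the 45 was -0.16, a change of -10.3%, and that of all genes tested was 0.01. All NU7441 samples lay below all DMSO samples for 32 of the 45, and above them for 2, where over all genes the shares were 22.2% and 20.6%. Because the contrast was known when the group was chosen, nothing is read from the distance between these shares. The number lower was 25 with upper-quartile scaling and between 23 and 30 with each library left out.

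**Figure D2:**
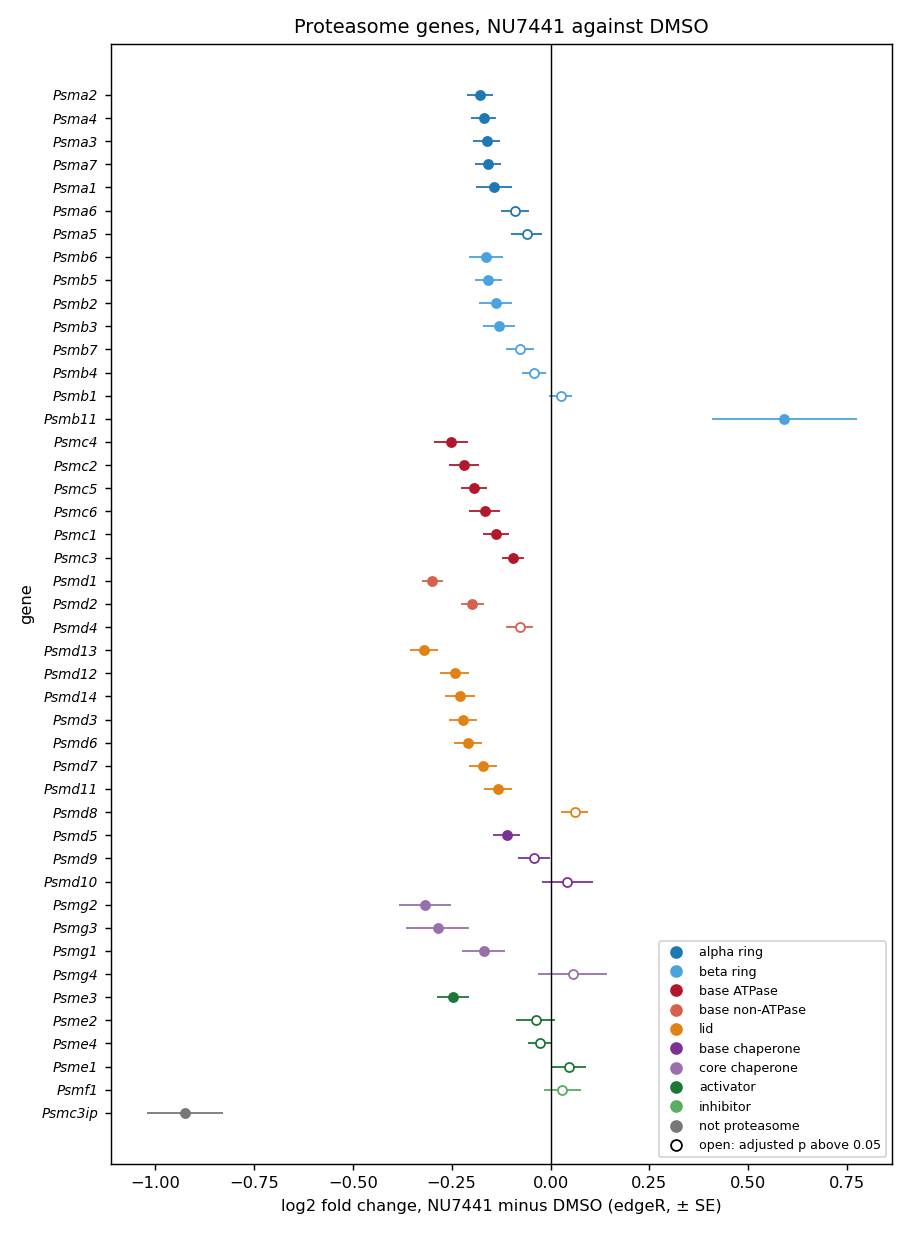
Log2 fold change of NU7441 minus DMSO with its SE for the 45 tested genes, grouped by role. Filled points passed an adjusted p of 0.05 and open points did not; most points of both particles lie between -0.32 and 0, with Psmc3ip (-0.93) and Psmb11 (0.59) outside.

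In the alpha ring 5 of 7 tested genes were lower, where 16.6% of all genes tested were, with a median log2 fold change of -0.16. Psma2 measured 67.3, 68.6 and 66.6 CPM in DMSO replicates 1 to 3 and 59.9, 58.7 and 60.3 in NU7441 replicates 1 to 3. The groups did not overlap, and the log2 fold change was -0.18 ± 0.03 (SE), the lowest value of the ring. At the other end, Psma5 measured 87.6, 83.4 and 89.7 CPM in DMSO and 86.8, 80.4 and 82.9 in NU7441. Those groups overlapped, since NU7441 replicate 1 lay above DMSO replicate 2, and the log2 fold change of -0.06 ± 0.04 did not pass. Psma3, Psma4 and Psma7 were lower as well, with changes of -10.6%, -11.1% and -10.3%, and Psma6 (-0.09 ± 0.04) did not pass. Psma6 was called lower by edgeR with library size only (adjusted p = 0.0422), with the replicate block (0.0254) and on leaving out NU7441 replicate 1 (0.0254). Psma1 (-0.14 ± 0.05) passed although its groups overlapped, and edgeR no longer called it with upper-quartile scaling (adjusted p = 0.0584) or on leaving out DMSO replicate 1 (0.104) or 2 (0.0682) or NU7441 replicate 2 (0.0997) or 3 (0.0937).

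In the beta ring the proteolytic subunits did not all pass. Psmb5, the target of bortezomib and the chymotrypsin-like subunit (mm10 chromosome 14, 54614120 to 54617995), measured 50.6, 50.6 and 50.1 CPM in DMSO and 45.6, 45.9 and 44.2 in NU7441. Each group was tight and the gap between them was wider than either, at a log2 fold change of -0.16 ± 0.03. Psmb5 shares 109 exon bases with Mir686 on the same strand. Psmb6, the caspase-like subunit, measured 76.4, 70.3 and 75.8 CPM in DMSO and 68.5, 62.7 and 67.6 in NU7441 (log2 fold change -0.16 ± 0.04). Its replicate 2 was the low sample of both groups, and the groups still did not overlap. Psmb7, the trypsin-like subunit, measured 87.3, 84.7 and 90.7 CPM in DMSO and 82.6, 82.2 and 84.4 in NU7441. All NU7441 samples were below all DMSO samples, but the log2 fold change of -0.08 ± 0.03 did not pass (edgeR, adjusted p = 0.115), although it did with the replicate block (0.0427). Psmb7 shares 405 exon bases, 11.8% of its exon bases, with Nek6 on the opposite strand. The sources used here do not give a strand setting, so reads on these shared bases cannot be told apart.

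The structural beta subunits with the highest levels did not pass. Psmb1 measured 166, 164 and 159 CPM in DMSO and 168, 162 and 168 in NU7441, overlapping groups with a log2 fold change of 0.03 ± 0.03. Psmb4 had a log2 fold change of -0.04 ± 0.03 and did not pass either. Psmb2 (-0.14 ± 0.04) and Psmb3 (-0.13 ± 0.04) were lower. The call of Psmb2 was lost on leaving out DMSO replicate 3 (edgeR, adjusted p = 0.0879) or NU7441 replicate 2 (0.0529) or 3 (0.0776). That of Psmb3 was lost with upper-quartile scaling (0.0542) and on leaving out DMSO replicate 2 (0.0508) or NU7441 replicate 2 (0.0816) or 3 (0.0747). Psmb11 was the gene called higher: it had 58, 54 and 84 counts in DMSO and 94, 84 and 90 in NU7441, that is 1.04, 1.14 and 1.17 CPM against 1.79, 1.54 and 1.72. In CPM the groups did not overlap (log2 fold change 0.59 ± 0.18), but of the 6 libraries only NU7441 replicate 2 could be left out with the call kept. With any of the other 5 libraries left out its adjusted p in edgeR lay between 0.0507 and 0.0739.

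The regulatory particle was lower in 15 of its 17 genes, with a median log2 fold change of -0.20 (a change of -12.8%) against -0.14 in the core. In 16 of the 17 every NU7441 sample lay below every DMSO sample. The shares over all genes tested were 16.6% called lower and 22.2% with every NU7441 sample below. All 6 ATPases of the base, Psmc1 to Psmc6, passed, from Psmc4 (-0.25 ± 0.04) to Psmc3 (-0.10 ± 0.03). The call of Psmc3 was lost with upper-quartile scaling (edgeR, adjusted p = 0.0627) and on leaving out DMSO replicate 1 (0.0803) or 3 (0.0835) or NU7441 replicate 2 (0.0655) or 3 (0.0608). Psmd1, the large scaffold protein of the base (mm10 chromosome 1, 86064619 to 86139295), measured 182, 180 and 181 CPM in DMSO and 146, 147 and 148 in NU7441. The samples of each group lay close together and far from the other group, with a log2 fold change of -0.30 ± 0.03 (a change of -18.8%). Psmd1 shares 252 exon bases with Htr2b on the opposite strand and 301 with Gm21972. Psmd2, the other scaffold, had a log2 fold change of -0.20 ± 0.03. Psmd4, a ubiquitin receptor, measured 71.9, 73.4 and 69.7 CPM in DMSO and 68.4, 66.9 and 68.3 in NU7441. No sample crossed between the groups there, yet the log2 fold change of -0.08 ± 0.03 did not pass (edgeR, adjusted p = 0.102).

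The lid held both the lowest and the highest fold change among the subunits of the regulatory particle. Psmd13 (mm10 chromosome 7, 140882394 to 140898642), a structural lid subunit, measured 57.8, 55.8 and 57.1 CPM in DMSO and 46.3, 46.2 and 44.2 in NU7441. The log2 fold change was -0.32 ± 0.04, a change of -19.9% with no overlap. Psmd14, the deubiquitinase that cuts chains from substrates (mm10 chromosome 2, 61711694 to 61800376), measured 82.6, 81.1 and 78.5 CPM in DMSO and 69.8, 65.5 and 71.3 in NU7441. Its log2 fold change was -0.23 ± 0.04, again without overlap. Psmd11, which joins lid, base and core, measured 77.2, 74.4 and 78.2 CPM in DMSO and 68.5, 69.9 and 71.2 in NU7441. That was the smallest of the 7 lid falls, at -0.13 ± 0.03. Psmd12 (-0.24 ± 0.04), Psmd3 (-0.22 ± 0.04), Psmd6 (-0.21 ± 0.04) and Psmd7 (-0.17 ± 0.03) fell too. Psmd8 (mm10 chromosome 7, 29174187 to 29180673), a subunit added late in lid assembly, went the other way: it measured 61.8, 61.7 and 62.0 CPM in DMSO and 64.6, 65.7 and 63.1 in NU7441. Every NU7441 sample was the higher, but the log2 fold change of 0.06 ± 0.03 did not pass (edgeR, adjusted p = 0.197).

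Among the assembly factors 4 of 7 were lower, where 16.6% of all genes tested were. Psmg2, which pairs with Psmg1 to start the alpha ring, measured 15.4, 15.04 and 17.1 CPM in DMSO and 13.4, 12.3 and 12.6 in NU7441. The groups did not overlap (log2 fold change -0.32 ± 0.07). Psmg1 (-0.17 ± 0.05) and Psmg3 (-0.29 ± 0.08) were lower too. The call of Psmg1 was lost with DESeq2 (adjusted p = 0.067), with upper-quartile scaling (0.0539) and without any library other than DMSO replicate 3 (0.0556 to 0.0998), and that of Psmg3 without DMSO replicate 2 (0.0618) or NU7441 replicate 3 (0.0707). Psmg4, the partner of Psmg3, measured 6.66, 7.20 and 6.91 CPM in DMSO and 6.68, 7.53 and 7.36 in NU7441, overlapping groups with a log2 fold change of 0.06 ± 0.09. Of the base chaperones, Psmd5 was lower (-0.11 ± 0.03) and Psmd9 (-0.04 ± 0.04) and Psmd10 (0.04 ± 0.06) did not pass. The call of Psmd5 was lost with upper-quartile scaling (0.0664) and on leaving out DMSO replicate 1 (0.0645) or 3 (0.0707) or NU7441 replicate 2 (0.0556) or 3 (0.0607), all adjusted p from edgeR.

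Of the activators and the inhibitor, 1 of 5 was called lower, near the share of 16.6% over all genes tested. It was Psme3, which measured 86.1, 86.1 and 89.9 CPM in DMSO and 69.5, 74.8 and 76.7 in NU7441. NU7441 replicate 1 was the lowest sample, the groups did not overlap, and the log2 fold change was -0.25 ± 0.04. Psme1 measured 60.4, 59.7 and 60.5 CPM in DMSO and 66.8, 59.9 and 59.95 in NU7441. NU7441 replicate 1 alone set its log2 fold change of 0.05 ± 0.04, which was -0.0076 without that library. Psme2 (-0.04 ± 0.05), Psme4 (-0.03 ± 0.03) and Psmf1 (0.03 ± 0.05), an inhibitor of the core particle in vitro, did not pass.

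The symbol pattern also took in Psmc3ip, which is named for an interaction with Psmc3 but acts in homologous pairing during recombination and is no part of the proteasome. It measured 7.41, 7.20 and 7.58 CPM in DMSO and 3.63, 4.08 and 3.98 in NU7441, a log2 fold change of -0.93 ± 0.10. That change of -47.4% was the largest fall of the 46 rows. Psmc3ip shares 385 exon bases with Mlx on the opposite strand. Without it, 29 of 44 tested rows were lower, where 16.6% of all genes tested were, with a median log2 fold change of -0.15.

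**Figure D3:**
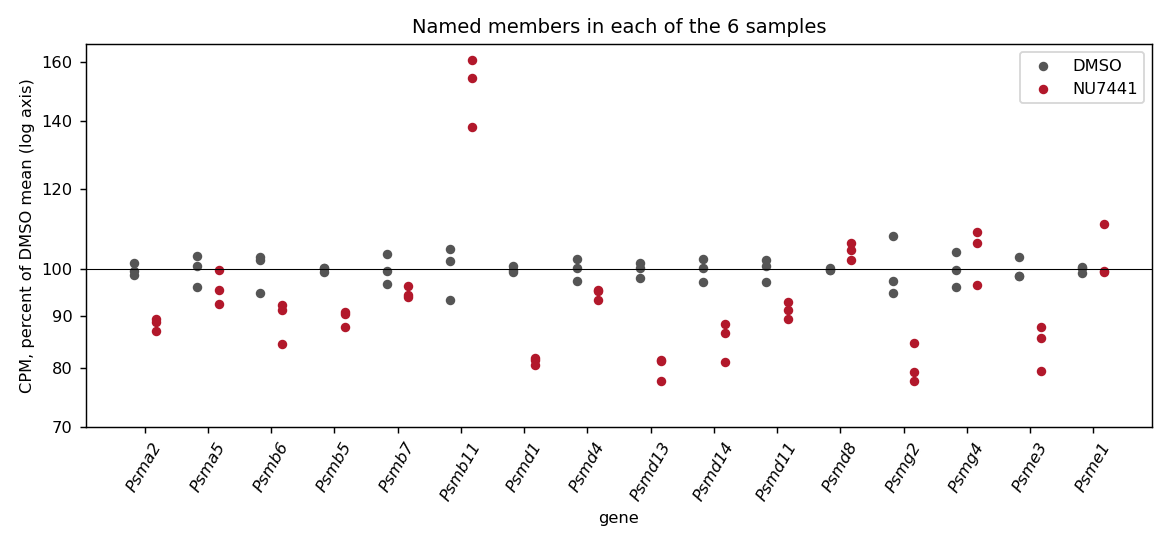
CPM of 16 members in each sample as a percent of the gene's DMSO mean (log axis), DMSO samples in grey and NU7441 samples in red. Psmd1 and Psmd13 lie near 80% with no overlap, Psmd8 lies just above 100%, and the Psme1 value rests on 1 high NU7441 sample.

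The particles were then summed within each sample. The 14 core genes summed to 894, 865 and 889 RPKM in DMSO replicates 1 to 3 and to 838, 781 and 800.1 in NU7441. The 17 regulatory genes summed to 663, 646 and 665 RPKM in DMSO and to 584, 558 and 570 in NU7441. Neither sum overlapped between the groups, and the mean change was -8.65% for the core and -13.3% for the regulatory particle. The deposited RPKM scales the libraries otherwise than the CPM of the fit, and lower in NU7441. Mean Psmb1, for instance, went from 118.9 to 118.5 RPKM but from 162.8 to 165.7 CPM. The changes of the sums are therefore not on the scale of the fold changes above. The ratio of the regulatory to the core sum was 0.742, 0.747 and 0.748 in DMSO and 0.698, 0.714 and 0.712 in NU7441, so that it was lower in all NU7441 samples, with a mean change of -5.03%. This ratio does not depend on how the libraries are scaled, and as a score over genes chosen with the contrast known it is given with no test. NU7441 replicate 1 had the highest level of the 3 NU7441 samples for 9 of 14 core genes and 7 of 17 regulatory genes, and it also had the lowest ratio. Without that library the median log2 fold change was -0.16 for the core and -0.20 for the regulatory particle, a difference of -0.03 in place of -0.06. The share of a library's counts that fell on the 46 rows was 0.334% ± 0.00487 (SD, n = 3) in the DMSO samples and 0.299% ± 0.00704 in the NU7441 samples. In a bulk sample, fewer transcripts per cell and a different mix of cells cannot be told apart.

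**Figure D4:**
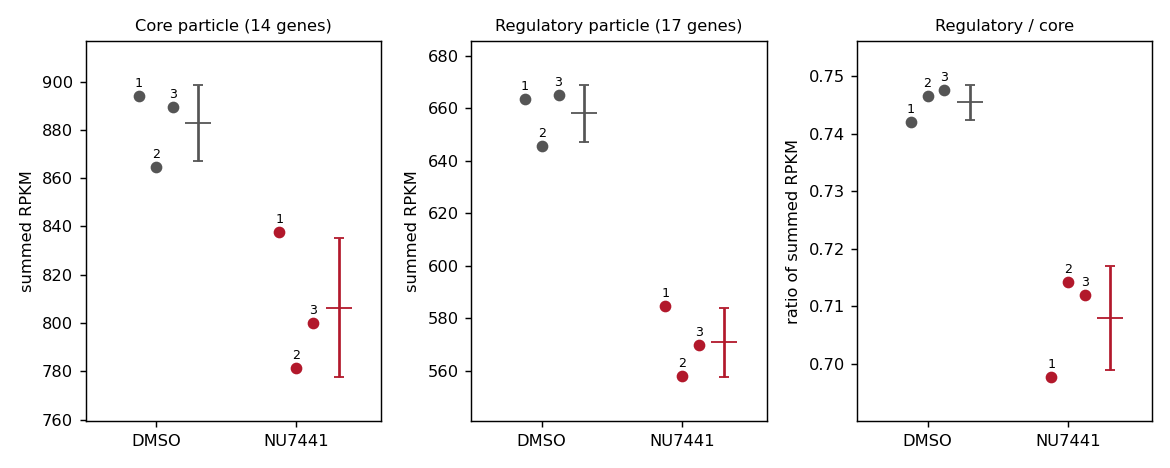
Summed RPKM of the 14 core genes, of the 17 regulatory genes and their ratio in each sample, numbered by replicate, with the mean and SD beside the points (axes do not start at 0). All NU7441 samples lie below all DMSO samples in the 3 panels, and the ratio falls from 0.745 to 0.708.

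Promoter sequence was examined because most members were lower in NU7441. RefSeq windows on GRCm38.p6 from 250 bases before to 50 after a start site were found for 38 of the 46 genes, and in 33 of these the start site lay within 50 bases of the end of the deposited row. Psma8, Psmb1, Psmb2, Psmb7, Psmc3, Psmd3, Psmd7 and Psmg2 had none. Each window was searched on both strands for 4 motifs: the core of the antioxidant response element bound by NRF1 and NRF2 (TGACNNNGC), the ETS core (CCGGAAG), the CCAAT box (CCAAT) and the GC box (GGGCGG). The ETS core was found in 15 of the 38 genes (39.5%), against 9.9% of all genes with a window and 18.9% of those among the genes tested. It lay in 9 of 14 regulatory genes and in 1 of 12 core genes, Psma6. The antioxidant core was found in 6 of 38 (15.8%), against 14% of all genes and 17% of those tested. Of these 6 genes 4 were called lower, and of the 32 without it 21 were. The CCAAT box was found in 36.8% (41.1% of all genes, 43.0% of those tested) and the GC box in 57.9% (38.2% and 67.5%). These 2 motifs differed between the particles too. The CCAAT box lay in 7 of 12 core and 4 of 14 regulatory genes, and the GC box in 5 of 12 and 10 of 14. The median GC content was 58.8% for the members' windows and 52.8% for all genes with a window. Its part in these shares was not tested. Of the 15 genes with an ETS core 12 were called lower, and of the 23 without it 13 were, beside 16.6% of all genes tested. The 15 include Psmc3ip, and 9 of them are regulatory genes, a particle in which 15 of 17 genes were lower. The split thus partly repeats that between the particles. Among the regulatory genes with a window, Psmd4 had the ETS core and was not called. Psmc4, Psmc5, Psmd1 and Psmd14 lacked it and were called lower, and Psmd8 lacked it and was not. The motif matches are letters in a window and show no binding.

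The 120 bases before the start site are given for the regulatory genes with an ETS core in that stretch and a start site within 50 bases of the deposited row's end, for the catalytic subunits Psmb5 and Psmb6, which carry the antioxidant core there, and for Psmd8, the lid gene that did not fall. Capitals mark the ETS core or the antioxidant core on either strand, all other bases are in lower case, and no matches to these motifs overlapped. Each is written 5′ to 3′ on the strand of its gene, in the order chr5:21785155-21785274 (plus), chr14:45329704-45329823 (plus), chr16:20651532-20651651 (plus), chr14:14120946-14121065 (minus), chr11:80428495-80428614 (plus), chr11:107479408-107479527 (plus), chr14:54617996-54618115 (minus), chr11:70525237-70525356 (plus) and chr7:29180674-29180793 (minus).
Psmc2: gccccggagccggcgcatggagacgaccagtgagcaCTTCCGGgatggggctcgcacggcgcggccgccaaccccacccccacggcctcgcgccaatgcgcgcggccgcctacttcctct
Psmc6: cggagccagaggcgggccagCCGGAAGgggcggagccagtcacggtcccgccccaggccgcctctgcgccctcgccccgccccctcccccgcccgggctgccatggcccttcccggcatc
Psmd2: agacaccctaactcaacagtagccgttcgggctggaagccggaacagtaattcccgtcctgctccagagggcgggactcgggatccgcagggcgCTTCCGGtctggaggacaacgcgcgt
Psmd6: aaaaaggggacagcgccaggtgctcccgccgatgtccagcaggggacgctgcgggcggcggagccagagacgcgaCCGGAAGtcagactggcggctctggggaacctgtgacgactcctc
Psmd11: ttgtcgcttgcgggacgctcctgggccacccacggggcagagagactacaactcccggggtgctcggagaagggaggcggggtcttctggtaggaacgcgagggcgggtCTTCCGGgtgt
Psmd12: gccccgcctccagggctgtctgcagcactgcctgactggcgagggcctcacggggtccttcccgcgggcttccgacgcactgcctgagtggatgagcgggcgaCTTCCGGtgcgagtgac
Psmb5: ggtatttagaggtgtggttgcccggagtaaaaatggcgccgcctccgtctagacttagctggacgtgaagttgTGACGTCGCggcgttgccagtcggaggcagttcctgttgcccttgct
Psmb6: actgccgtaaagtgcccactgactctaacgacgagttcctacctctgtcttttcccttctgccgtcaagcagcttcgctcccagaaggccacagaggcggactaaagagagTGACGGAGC
Psmd8: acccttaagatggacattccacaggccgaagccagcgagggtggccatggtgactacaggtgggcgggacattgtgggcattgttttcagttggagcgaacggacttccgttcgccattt

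In the first 6 the ETS core lies between 11 and 100 bases before the start, and all 6 genes were called lower. They come from a particle in which 15 of 17 genes were lower. Psmc1, Psmd4 and Psmd13 also had an ETS core in their windows but were left out by the choice of sequences, and of them Psmd4 was not called. A link between motif and call was not tested. In Psmb5 and Psmb6 the antioxidant core begins 47 and 9 bases before the start, and both genes were lower as well. Psmc6, Psmd12, Psmd9 and Psme4 also had it in their windows, and Psmd9 and Psme4 were not called. Psmd8, shown because it did not fall, has neither motif in these bases. Psmc4, Psmc5, Psmd1 and Psmd14 have neither in their windows and were called lower.

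The genes are scattered over 16 chromosomes, with 9 on chromosome 11 and 6 each on chromosomes 2 and 14. In 2 neighbouring pairs the gap was under 50 kb. Psme1 and Psme2 lie 5.9 kb apart and neither passed. Psmb5 and Psmb11 lie 7.3 kb apart on opposite strands, and the first was called lower and the second higher.

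Genes around the proteasome were described from lists of related proteins. The shares over all genes tested, to set beside each count, were 16.6% lower and 14.1% higher. Of 7 tested proteasome proteins outside the symbol pattern 5 were lower, with a median log2 fold change of -0.17. Adrm1, a ubiquitin receptor of the base, had -0.32 ± 0.04. The proteasome-bound deubiquitinases Uchl5 (-0.60 ± 0.08) and Usp14 (-0.27 ± 0.04) fell as well, Uchl5 from 14.8 to 9.72 CPM in the mean, as did Txnl1 (-0.17 ± 0.04) and the core chaperone Pomp (-0.13 ± 0.03). Shfm1, the small lid subunit (-0.14 ± 0.07), and AI314180 (-0.03 ± 0.03) did not pass. None of the 3 immunoproteasome subunits passed in edgeR or DESeq2, and 0 of them had an unadjusted p under 0.05, while 1 was called higher on leaving out DMSO replicate 1: Psmb8 had a log2 fold change of -0.09 ± 0.05, Psmb9 of 0.11 ± 0.09 and Psmb10 of 0.09 ± 0.06.

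A list of 10 genes held the shuttle proteins, which carry ubiquitinated substrates to the proteasome, with Vcp, its cofactors and the autophagy receptors Sqstm1 and Nbr1. Of these 6 were lower, among them Rad23b (-0.22 ± 0.03), Ubqln4 (-0.18 ± 0.03) and Nploc4 (-0.14 ± 0.03), and 2 were higher, Sqstm1 (0.19 ± 0.03) and Nbr1 (0.18 ± 0.03). The number lower was 4 with upper-quartile scaling and on leaving out DMSO replicate 1 or 3 or NU7441 replicate 2 or 3. Of the genes of ubiquitin and its activating enzymes, Rps27a, which encodes ubiquitin fused to a ribosomal protein, rose by 0.18 ± 0.03 on the log2 scale, Uba3 (-0.10 ± 0.03) was lower and Ubb (0.07 ± 0.07) did not pass. The call of Uba3 was lost with upper-quartile scaling (edgeR, adjusted p = 0.0909) and on leaving out any library other than NU7441 replicate 1 (0.051 to 0.106).

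Of 10 regulators of NRF1 and NRF2, these factors included, 2 were called higher, Nfe2l1 and Btrc, where 14.1% of all genes tested were. Neither call was stable. Nfe2l1 had a log2 fold change of 0.09 ± 0.03, a call that was lost with library size only (edgeR, adjusted p = 0.125) and on leaving out DMSO replicate 2 (0.109) or 3 (0.0766) or NU7441 replicate 1 (0.0936) or 3 (0.12). The call of Btrc (0.09 ± 0.03) was lost in edgeR with library size only (adjusted p = 0.129), without the low-count filter (0.0619) and on leaving out any of the 6 libraries (0.0544 to 0.115), and in DESeq2 (0.077). Nfe2l2, which encodes NRF2, stood at -0.01 ± 0.03. Of 12 antioxidant targets of NRF2, 5 were lower, with Slc7a11 (-0.58 ± 0.10) and Txnrd1 (-0.19 ± 0.03) among them. There were 3 lower and 2 higher with upper-quartile scaling and on leaving out DMSO replicate 1, 2 lower and 2 higher on leaving out NU7441 replicate 2, and 6 lower and 2 higher with the replicate block. On leaving out the other libraries between 2 and 4 were lower.

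In the COP9 signalosome, whose subunits are related to those of the lid, 6 of 9 genes were lower. The median log2 fold change of the 9 was -0.15. Among the genes called lower were Gps1 (-0.22 ± 0.03), Cops3 (-0.20 ± 0.04) and Cops5 (-0.20 ± 0.03), a protease related to Psmd14. The number lower was 5 with upper-quartile scaling and on leaving out any library other than NU7441 replicate 3. In the CCT chaperonin 5 of 8 genes were lower with a median of -0.12, including Cct6a (-0.31 ± 0.03) and Cct3 (-0.22 ± 0.03). Cct4 (0.09 ± 0.03), with every NU7441 sample above every DMSO sample, and Cct2 (0.05 ± 0.03) lay on the other side and did not pass. In 6 of the alternatives 1 CCT gene was called higher, and on leaving out NU7441 replicate 2 the number lower was 4. No difference between the complexes was tested.

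**Figure D5:**
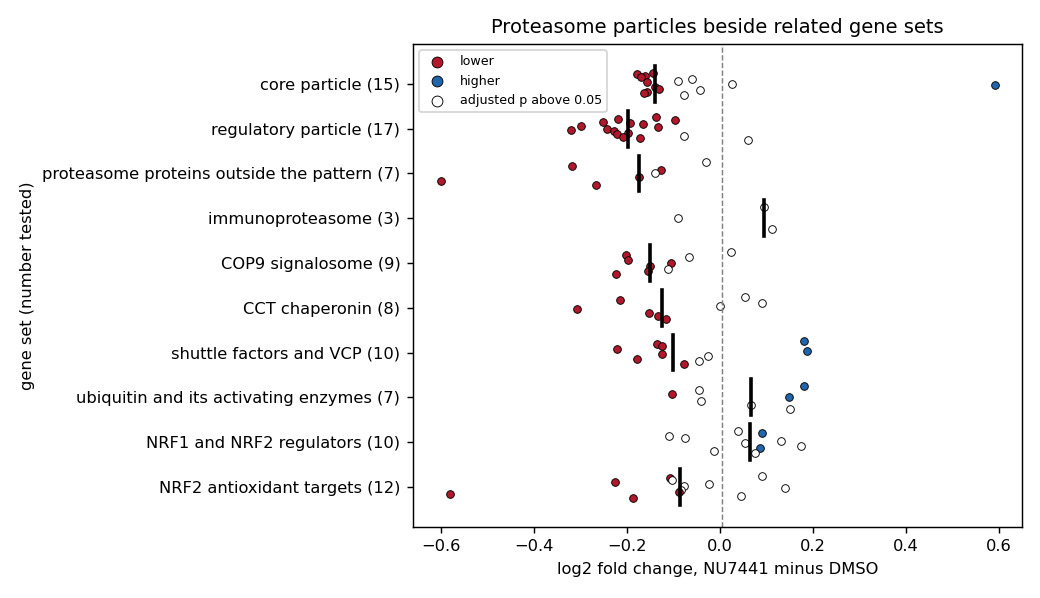
Log2 fold change of NU7441 minus DMSO for each tested gene of the proteasome particles and of 8 related sets, red where called lower, blue where called higher and white where not called; the bars are medians and the dashed line is the median of all genes. The medians of the regulatory particle (-0.20), the core (-0.14), the COP9 signalosome (-0.15) and the CCT chaperonin (-0.12) lie on the same side.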

How the data were processed

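For each gene row the table deposited by the authors gives counts and RPKM for every sample. Among the tools in the submitters' processing notes are HTSeq, bcl2fastq and version 2.0.6 of TopHat2, with mm10 as the build. Their settings are not given in the sources used here. The deposited counts hold 0 odd values, so each read pair appears to be counted as 2. The deposited RPKM uses the length column, which the file headers name a coding length (in bases), and was used for levels between genes and for sums per particle. All 46 rows overlapped a GENCODE M21 gene of the same symbol on mm10.

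Counts were filtered with filterByExpr at a minimum count of 10 and a minimum total of 15, and TMM scaling was applied. The test was edgeR's two-sided quasi-likelihood test (version 4.0.16, under R 4.3.3) on group alone, and p-values were adjusted by Benjamini-Hochberg over the whole table, with calls at 0.05. The SE is the log2 fold change over the square root of F. DESeq2 1.42.0 was an alternative. The biological coefficient of variation was 5.6%. The procedure was tested on simulated counts. No pair of samples in a group agreed within sampling noise. Members, role classes, gene lists and motifs were chosen with earlier results of these data known. Values per sample are given for the highest and lowest fold change of each role class and for Psmb5, Psmb6, Psmb7, Psmd14 and Psmd11. Psmb1 and Psmc3ip were added after their values were seen. Some genes of the ubiquitin list are not reported here.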

Additional observations from a re-analysis of the deposited data

How the results depend on the processing

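All 30 members called lower kept a negative log2 fold change under each of the 14 alternatives. Their number was 30 by median-of-ratios scaling, without the low-count filter, with a robust fit and with halved counts, 29 with DESeq2, 31 with library size only and 25 with upper-quartile scaling. With each library left out it lay between 23 and 30, and the number called higher between 0 and 1. Upper-quartile scaling turned the calls over all genes from 1941 higher and 2290 lower to 2488 higher and 1919 lower, while those of the members became 1 higher and 25 lower. The median of the regulatory particle was -0.17 with upper-quartile scaling and -0.22 with library size only. Log2 fold changes reversed for 4 members that were not called: with each library left out, Psmd10 ranged from -0.0245 to 0.0844 and Psme1 from -0.0076 to 0.0752, both lowest without NU7441 replicate 1. Psme2 ranged from -0.0965 to 0.0097 and Psmf1 from -0.0169 to 0.0851, both reversed without DMSO replicate 1. Whether replicate numbers pair the samples is not stated and was not tested. The correlations of same-numbered deviations were 0.13, 0.09 and 0.05. Each sample correlated best with its own number, a hint from the data and not the design. With the replicate block the calls over all genes were 2417 higher and 2703 lower, against 1941 and 2290 without it. Of the members, 32 were lower and 1 higher with the block. The member calls gained by the block were those of Psma6 and Psmb7. Psmb11 had 54 to 94 counts per sample, and its call was kept with halved counts (edgeR, adjusted p = 0.019) and lost on leaving out any of 5 libraries. The cause was not tested.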
